A study of Nasonia vitripennis with 39 samples.

Results

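The question addressed here is whether gaining a chromosome set goes with the same changes in messenger RNA in the abdomens and the heads of females of the parasitoid wasp Nasonia vitripennis. Of 39 poly(A)-selected RNA libraries, the 19 female ones were taken by their labels, and the 20 male ones entered only 1 comparison with abdomens and 1 alternative fit. All animals carried the background of the Whiting Polyploid Line, a laboratory line in which polyploidy arose without induction, and all were sampled 1 day after emergence as adults. The groups were abdomens of WPL_LSL_2N females (4 libraries), abdomens of WPL_LSL_3N females (5), heads of WPL_LSL_2N females (5) and heads of WPL_LSL_3N females (5), called 2N and 3N below. There was no treatment. Heads are not tied to abdomens by the labels, which also leave unsaid how many animals went into a library, and every p-value therefore measures the spread between libraries, which may be partly technical. Both ploidies come from 1 line, so what is described is a difference within that line.

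In wasps, males usually develop from unfertilised eggs and carry a single chromosome set, and females come from fertilised eggs and carry a pair of them. A triploid female has gained a set in all of her cells, but the tissues differ in what they hold. The abdomen holds the ovaries with their germ cells and maturing eggs, along with fat body, gut and cuticle, and the head holds the brain, the compound eyes and the antennae. An odd number of chromosome sets is difficult to divide in meiosis, and triploid wasp females are known for low fertility.

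The 19 libraries held between 16.7 and 79.3 M estimated counts each, and 5 exceeded 30 M: 1 of the 4 2N abdomens, 1 of the 5 3N abdomens, 3 of the 5 3N heads and 0 of the 5 2N heads. Depth and ploidy were therefore partly mixed in heads. A pair of libraries stood apart. Library B39A, labelled a 3N abdomen, had a median correlation of 0.939 with the other 3N abdomens, against 0.977 to 0.985 for the others, and B21, labelled a 2N head, had 0.982 against 0.995 to 0.996. The summed levels of cell type markers set them apart as well, though single members did not all follow the sums. The summed level of 7 germline and ovary genes was 2389 to 2448 CPM (counts per 1 M of the library, with the library size scaled by TMM) in 2N abdomens and 1044 to 2187 in 3N abdomens, with B39A the highest of the latter. In heads the same sum was 125 to 254 CPM in 2N, with B21 the highest, and 146 to 173 in 3N. None of the 7 genes was at 0 in all libraries of a group. A set of 3 muscle genes summed to 515 to 572 CPM in 2N abdomens and 635 to 1815 in 3N abdomens, 4 fat body genes to 2.60 to 3.17 and 4.16 to 63.9, and 19 neuronal genes to 19.4 to 23.3 and 25.8 to 119, with B39A the lowest 3N abdomen each time. In heads the neuronal sum was 2024 to 2243 CPM in 2N and 2379 to 3188 in 3N. The eye opsin Lop1 was at 0 in every abdomen and at 5976 to 7497 CPM in 2N heads and 3609 to 5487 in 3N heads, so this marker separated the tissues as labelled. The part of these cell types in the results below was not tested, and in such bulk tissue fewer cells of a type and less RNA per cell cannot be told apart.

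Triploidy went with far more change in abdomens than in heads, and the changes differed between the tissues at many genes. Of 11284 genes tested, 3805 were higher in 3N than in 2N abdomens (33.7% of all genes tested) and 2348 were lower (20.8%), together 6153 genes (54.5%) at an adjusted p under 0.05 in edgeR's quasi-likelihood test. In heads 246 genes were higher (2.18%) and 94 lower (0.833%), together 340 (3.01%). The difference itself was tested as an interaction, the log2 ploidy difference in abdomens minus that in heads. It passed at 4270 genes (37.8%), being higher in abdomens at 3128 (27.7%) and lower at 1142 (10.1%). The median of the interaction over all genes was 0.16 on the log2 scale, and over the alternatives, single-library ones aside, it ran from -0.15 on the TPM scale to 0.23 without a count filter. The split depended on that scale, log2(TPM + 1), since 73.3% of the genes called were higher on counts and 47.5% on TPM. The added 1 shrinks log2 differences of genes at low levels, and its part in this was not tested.

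Genes were then sorted by where they passed. Of those with an interaction, 2943 rose in abdomens and did not pass in heads (26.1% of all genes tested), and 795 fell in abdomens and did not pass in heads (7.05%). Genes that passed in heads and not in abdomens were fewer, 120 that rose (1.06%) and 47 that fell (0.417%). Opposite directions, with both tissues past the threshold, were found at 17 genes: 13 that fell in abdomens and rose in heads (0.115%) and 4 with the reverse pattern (0.0354%). One gene passed in both tissues in the same direction with unequal size, and 347 passed the interaction alone. A further 88 genes passed in both tissues in the same direction without an interaction. Missing the threshold in a tissue does not show that a gene did not change there. Among the 2943 genes, the 95% interval of the difference in heads lay within a 2-fold change for 999. Without B39A and B21, 6166 genes had an interaction, among them 4202 of the 4270, and abdomens-only genes came to 5637 (3388 rising, 2249 falling), heads-only genes to 131 and opposite genes to 125. Without B39A alone, 2193 genes had a lower interaction and 195 were opposite. Lower interactions also numbered 717 without B27, 759 without B30, 753 without B36A and 721 without B37A. Genes that fell in abdomens alone numbered 429, 430, 423, 425 and 477 without B27, B30, B36A, B37A and B38, and 1783 without B39A. Genes called in heads numbered 147, 157, 177, 142, 222 and 141 without B21, B23, B31, B32, B33 and B35A, and 855 without B39A. Heads-only genes numbered 68 to 110 when B27, B40A, B21, B23, B31, B32, B33 or B35A was left out, and opposite genes 6 to 11 when B27, B28A, B30, B37A, B40A, B21, B22, B23, B25, B31, B32, B33 or B35A was.

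**Figure D1:**
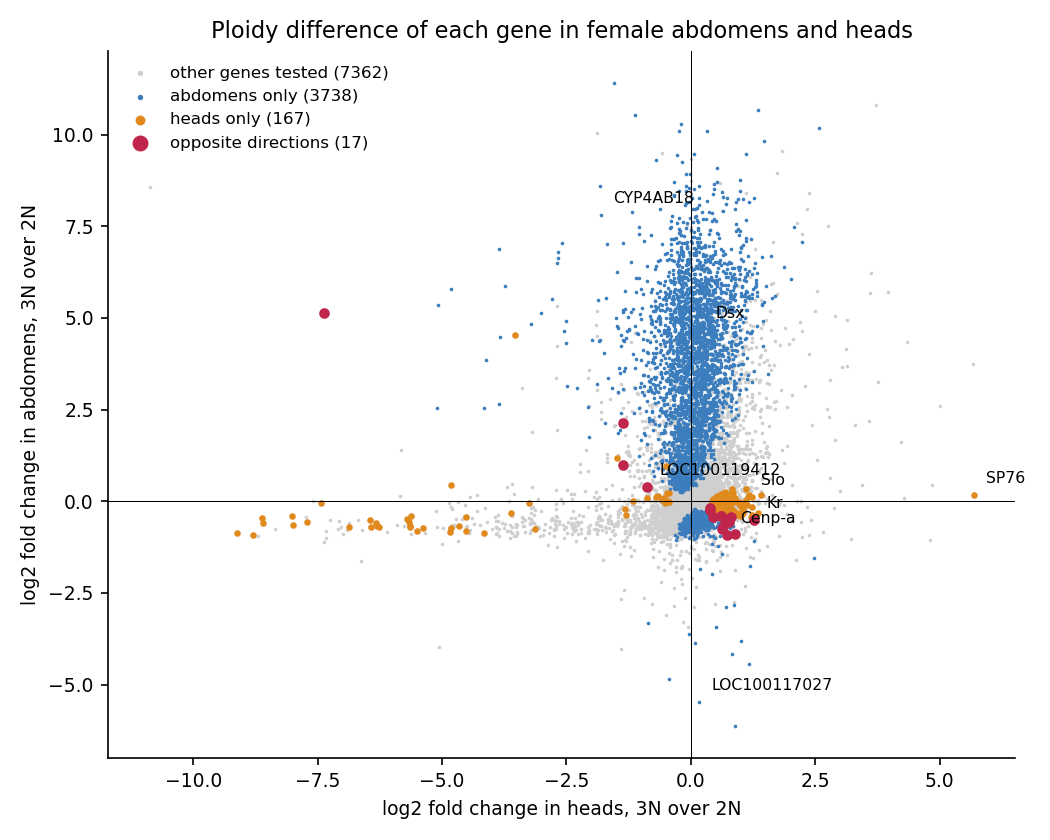
Each point is 1 gene, with the log2 difference of 3N from 2N in heads on the x axis and in abdomens on the y axis, coloured by the class of its call. Abdomens-only genes spread along the vertical axis, with a median log2 difference of 3.68 in abdomens and 0.02 in heads for those that rose, and the 17 opposite genes lie in the upper left and lower right parts of the plot.

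The genes that rose in abdomens alone were mostly lower in 2N abdomens than in 2N heads, at 2832 of the 2943 (96.2%, beside 54.05% of all genes). They were also lower in abdomens of 2N females than in those of males, with a median log2 difference of -3.58 beside -0.08 for all genes. The part of cell types in this was not tested. Between 3N and 2N, their median log2 difference was 3.68 in abdomens and 0.02 in heads, and 2624 of the 2943 exceeded a 2-fold change. Cytochrome P450 enzymes oxidise hormones, fatty acids and foreign compounds. Of the 40 P450 genes tested, 29 rose in abdomens alone, beside 26.1% of all genes. A higher interaction was found at 30 of the 40, beside 27.7% of all genes, and the other 10 did not pass. Their median interaction was 4.89 (log2) beside 0.16 over all genes. CYP4AB18 was at 0.280, 0, 0.116 and 0.378 CPM in the 2N abdomens and at 27.6, 60.9, 61.3, 2.47 and 43.0 CPM in the 3N abdomens. All 3N abdomens were above all 2N ones, and the lowest of them was B39A. In heads CYP4AB18 was at 2.30, 14.6, 4.38, 6.57 and 7.04 CPM in 2N and at 1.74, 2.32, 1.75, 1.71 and 2.49 in 3N, where only the 2N library B21 reached down into the 3N range. Its log2 difference was 7.80 ± 0.99 (SE) in abdomens (adjusted p 1.3e-05) and -1.81 ± 0.66 in heads (adjusted p 0.141), an interaction of 9.60 ± 1.17 (adjusted p 0.000155). With B39A and B21 left out, the head difference of CYP4AB18 was -2.05 (adjusted p 0.0139), so that the gene moved to the opposite class. It did so without B39A alone as well.

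Other P450 genes rose in abdomens from similarly low levels and had no call in heads. CYP336B1 was at 0.189 to 0.399 CPM in 2N abdomens and 1.32 to 17.9 in 3N abdomens, against 138 to 175 and 112 to 166 CPM in 2N and 3N heads. The interaction of CYP336B1 was 5.70 ± 0.70 (adjusted p 0.000155). CYP9AH6, CYP9P3 and CYP4AB12 had interactions of 5.95, 5.87 and 6.29, and in each the 3N and 2N heads overlapped. Genes were named from those whose ploidy groups do not overlap in the tissue of their call. This held in abdomens for 3171 of the 11284 genes and in heads for 1450. The lack of overlap, in either tissue, is therefore given as a description. The value for CYP4AB12 was 7.07 without B26A, the 2N abdomen with its highest level. The 28 P450 genes called on the TPM scale, and the 28 to 30 called when any 1 library was left out, were close to the 30 called in all. The share of each 3N abdomen in this was unequal: the median P450 gene lay 3.62, 3.01, 2.83 and 2.46 (log2) above the 2N abdomens in B36A, B37A, B38 and B40A, and 0.33 above in B39A.

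**Figure D2:**
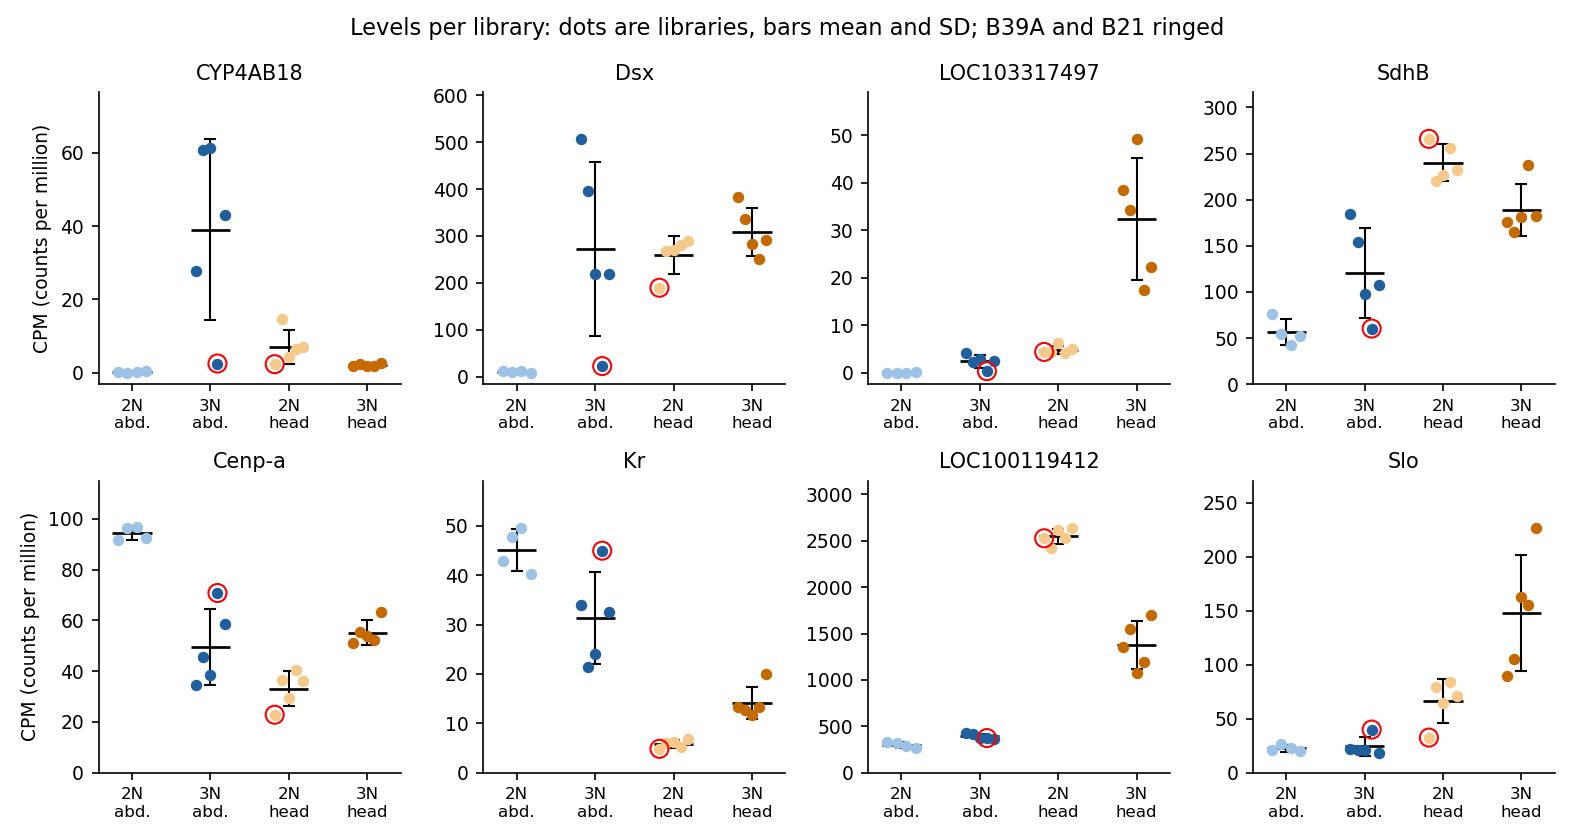
CPM of 8 genes on a linear axis for the 4 female groups; dots are libraries, bars give the group mean and SD, and B39A and B21 are ringed. CYP4AB18, Dsx and LOC103317497 are low in all 4 2N abdomens and higher in the 3N abdomens, with B39A the nearest to the 2N libraries, and Cenp-a and Kr are lower in 3N abdomens on average and higher in all 3N heads.

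Part of the cuticle protein, serine protease and yellow families also rose in abdomens without a call in heads. Of 28 cuticle genes tested (47 are in the table), 17 had a higher interaction, beside 27.7% of all genes tested, with a median of 3.84 (log2), and the other 11 did not pass. CPR16, a cuticle protein with a chitin-binding consensus, was at 2.32, 1.55, 1.01 and 0.709 CPM in 2N abdomens and at 206, 142, 77.6, 6.30 and 58.3 CPM in 3N abdomens. The groups did not overlap in abdomens and overlapped in heads, at 105 to 233 CPM in 2N and 109.4 to 245 in 3N. The interaction of CPR16 was 6.21 ± 0.88 (adjusted p 0.000156). CPR18 had an interaction of 8.05, or 9.04 without B26A. The heads of CPR18 did not overlap, at 7.26 to 8.71 CPM in 2N and 3.42 to 6.01 in 3N, but had no call (-0.79, adjusted p 0.525). Of 35 serine proteases and their homologues, 16 had a higher interaction and 1, SP76, a lower one, beside 27.7% and 10.1% of all genes, with a median of 3.12. SP67 was at 0.639 to 0.923 CPM in 2N abdomens and 1.56 to 51.9 in 3N abdomens, an interaction of 4.84 ± 0.79 (adjusted p 0.000243). SP120 had 3 counts over the 2N abdomens and 156 over the 3N abdomens, a ratio of 36.3 with a 95% counting interval of 12.2 to 178. The fitted interaction of SP120 was 6.06, and it was 7.05 without B26A and 5.44 without B27. Of 14 genes of the yellow and royal jelly family, 9 had a higher interaction beside the same 27.7%, among them Y-b (3.86) and Mrjpl7 (4.68).

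Among defence and detoxification genes, 4 of 7 immune genes and 13 of 27 glutathione transferases and carboxylesterases rose in abdomens alone, beside 26.1% of all genes. Of the 7 immune genes, 5 had a higher interaction, beside 27.7% of all genes, with a median of 5.49. The defensin Def1-2, an antimicrobial peptide, was at 0.320, 0.258, 0.155 and 0.709 CPM in 2N abdomens and at 35.03, 27.3, 16.7, 2.14 and 31.9 CPM in 3N abdomens. The abdomens did not overlap. In heads Def1-2 ran from 12.4 to 113 CPM in 2N and from 12.3 to 39.9 in 3N, and the 2N library B23 was the highest. Its interaction was 6.90 ± 1.09 (adjusted p 0.000207), or 5.94 without B23. Another defensin, LOC100121630 (synonym Def2-3), had 3 counts over the 2N abdomens and 139 over the 3N abdomens, a ratio of 32.3 with a 95% counting interval of 10.8 to 159. The heads of LOC100121630 moved the other way, from 44.9 to 63.9 CPM in 2N to 15.9 to 22.7 in 3N, without overlap, but with an adjusted p of 0.101. Its interaction was 6.52, and 7.57 without B30 and 5.91 without B27. Without B39A the head difference of LOC100121630 passed and the gene joined the opposite class. Of the 27 glutathione transferases and carboxylesterases, 14 had a higher interaction, with a median of 1.55, among them the carboxylesterases CCE-E11 (5.53) and CCE-A5 (5.49, or 6.07 without B26A). In the same list GstO1 and GstS8 fell in abdomens and GstT3 and GstS3 fell in heads, of which GstS3 alone also had an interaction. Of 3 hexamerins, storage protein genes, 2 rose in abdomens, beside 33.7% of all genes. Hex70b alone had an interaction, of 4.49, or 3.31 without B36A, and 2 of the 3 had one without B39A. Hex70b had only 9 counts over the 2N abdomens, and its 2N and 3N abdomens overlapped. The Hex70b call was lost on the TPM scale and in the libraries under 30 M counts alone, with adjusted p up to 0.130.

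Of 3 sex determination genes, Dsx and Tra rose in abdomens with no call in heads, and Fru rose in heads with no call in abdomens. Doublesex, Dsx, the transcription factor at the end of the insect sex determination pathway, was at 12.02, 10.4, 12.3 and 8.56 CPM in 2N abdomens and at 506, 396, 219, 22.4 and 218 CPM in 3N abdomens. The lowest 3N abdomen, B39A, was still above every 2N abdomen. In heads Dsx was at 190, 269, 269, 281 and 289 CPM in 2N and at 383, 336, 283, 250 and 291 in 3N, and these overlapped. The log2 difference of Dsx was 4.65 ± 0.57 in abdomens and 0.25 ± 0.45 in heads, with an interaction of 4.40 ± 0.69 (adjusted p 0.000205). Transformer, Tra, which sets the splicing of Dsx, had a smaller interaction of 1.75 ± 0.43 (adjusted p 0.00458), from 31.3 to 38.5 CPM in 2N abdomens to 39.5 to 212 in 3N. Fruitless, Fru, was the member of this group of 3 without an interaction (-0.40, adjusted p 0.161). It was at 0.18 in abdomens (adjusted p 0.355) and rose in heads by 0.58 ± 0.15 (adjusted p 0.0474), a call lost when any 1 library other than B26A, B39A or B40A was left out, with adjusted p up to 0.131. Gene-level counts do not tell the sex-specific splice forms of these 3 genes apart.

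Of 5 genes of hormones and their receptors, 4 had a higher interaction, beside 27.7% of all genes, with a median of 3.64. The other, the adiponectin receptor gene Adipor1, fell in abdomens (-0.34, adjusted p 0.0362) and had no interaction. The receptor of adipokinetic hormone, Akhr, which in insects mobilises fat body stores, was at 0.215 to 0.812 CPM in 2N abdomens and at 48.4, 53.3, 18.3, 1.32 and 19.4 CPM in 3N abdomens, without overlap. In heads Akhr ran from 8.30 to 12.8 CPM in 2N and from 9.29 to 22.7 in 3N, which overlap. The interaction of Akhr was 5.02 ± 0.92 (adjusted p 0.0005). The related peptide receptor gene Acpr had an interaction of 4.66 from abdominal levels of 0 to 0.0946 CPM in 2N and 0.123 to 2.20 in 3N, while its heads held 99.2 to 114 CPM in 2N and 108 to 124 in 3N.

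Genes of nerve and muscle, which are among the markers whose levels were given above, moved in both directions. Of 20 neuronal channels and receptors, 14 rose in abdomens and 1 fell on counts, beside 33.7% and 20.8% of all genes, and on the TPM scale 5 rose. On the interaction, 12 were higher and 2 lower (HisCl1 and Slo), with a median of 2.73 on counts. On the TPM scale only 1 was higher and 4 were lower, with a median of -0.18. The direction of this group was thus not stable to the scale, in which the added 1 shrinks differences at low levels. GRD, a subunit of ligand-gated chloride channels, was at 0.300 to 0.757 CPM in 2N abdomens and 1.15 to 12.3 in 3N abdomens, an interaction of 3.31 ± 0.61 (adjusted p 0.000547). The heads of GRD did not overlap, at 53.8 to 74.7 CPM in 2N and 77.5 to 102 in 3N, but had no call (0.43, adjusted p 0.571). The interaction of the chloride channel gene pHCl, 4.67 on counts, did not pass on TPM. The histamine-gated chloride channel gene HisCl1 had 3 counts over the 2N abdomens and 0 over the 3N abdomens, too few for a fold. Its lower interaction was lost without B26A, B28A, B36A, B38 or B39A, with adjusted p up to 0.188. Of the muscle genes, tropomyosin Tm1 had an interaction of 1.17 ± 0.32 (adjusted p 0.0083) and the sarcomere Z-disc gene Zasp66 one of 2.98 ± 0.71 (adjusted p 0.00342), with Zasp66 also passing as higher in 3N heads without B39A. Tm2 fell in abdomens (-0.46, adjusted p 0.00161) and had one of -0.51 ± 0.15 (adjusted p 0.0109). The transcription factor gene Eyg, known in flies from eye development, had 0 counts in the 2N abdomens and 81 in the 3N abdomens, at least 18.8-fold higher against a floor of 3 counts over the group. Its interaction of 5.06 was lost when any 1 of B26A, B27, B28A, B30, B36A, B37A, B38, B22, B23, B24 and B34A was left out, with adjusted p up to 0.0824, and it was -0.64 on the TPM scale. Emc, an inhibitor of helix-loop-helix factors in flies, had an interaction of 3.47 ± 0.54 (adjusted p 0.000202).

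Of 90 odorant receptors tested (214 are in the table), 5 had a higher interaction, a share below the 27.7% of all genes, and the median was 0.48 on counts and -0.12 on TPM. Of these, Or275 had 2 counts over the 2N abdomens and 289 over the 3N abdomens, a ratio of 101 with a 95% counting interval of 27.6 to 836. The interaction of Or275 was 7.19, or 9.55 without B26A. Or98 had 0 and 35 counts, at least 8.13-fold higher against 3 counts over the group, and a fitted interaction of 6.27, or 5.42 without B37A. The number of odorant receptors with a higher interaction was 8 without B38 and 9 without B39A. Of 6 gustatory receptors tested, of 46 in the table, 3 rose in abdomens, beside 33.7% of all genes. Gr2 alone had an interaction (2 of the 6 without B26A, B37A, B38 or B39A). The interaction of Gr2 was 4.47, or 3.50 without B38, the 3N abdomen with its highest level.

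The 795 genes that fell in abdomens alone moved by much less than those that rose. Their median log2 difference was -0.57 in abdomens and 0.10 in heads, and 25 of them exceeded a 2-fold change. They were 1.90 (median log2) higher in abdomens of 2N females than in those of males, beside -0.08 for all genes. For 763 the 95% interval of the head difference lay within a 2-fold change. Among the members with descriptive names were both genes of DNA methylation that were tested. Dnmt1a, a DNA methyltransferase that copies methylation marks after replication, was at 192, 231, 207 and 224 CPM in 2N abdomens and at 110, 149, 123, 220 and 132 CPM in 3N abdomens. B39A lay within the 2N range and the other 4 3N abdomens below it. In heads Dnmt1a was at 25.7 to 28.4 CPM in 2N and 28.1 to 33.5 in 3N. Its difference was -0.54 ± 0.15 in abdomens and 0.14 ± 0.14 in heads, an interaction of -0.68 ± 0.20 (adjusted p 0.0138), or -0.88 without B39A and B21. Mbd, whose product binds methylated DNA, had an interaction of -0.65 ± 0.20 (adjusted p 0.016), from 156 to 162 CPM in 2N abdomens to 81.3 to 135 in 3N, without overlap.

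Of 15 genes of the cell cycle and chromosome structure, 8 fell in abdomens, beside 20.8% of all genes tested, and 1 rose. The interaction was lower at 5 (Cenp-a, Smc1a, Smc2, Smc3 and Cdk2), beside 10.1% of all genes, and higher at 1, E2f8. The median interaction was -0.28, and without B39A and B21 it was -0.98 with 11 genes lower. The number lower was 3 when B27, B30, B36A, B37A, B40A, B24, B25, B34A or B35A was left out. Smc1a, a subunit of the cohesin ring that holds sister chromatids together, was at 225, 218, 187 and 217 CPM in 2N abdomens and at 105, 133, 104, 197 and 120 CPM in 3N abdomens. Only B39A reached into the 2N range. In heads Smc1a was at 47.4 to 58.7 CPM in 2N and 49.6 to 64.4 in 3N, and its interaction was -0.76 ± 0.21 (adjusted p 0.0094). E2f8, a repressor of cell cycle genes, rose in abdomens from 11.1 to 12.4 CPM to 17.3 to 41.3, with B38 the highest, and had an interaction of 1.11 ± 0.30 (adjusted p 0.00833). Of 15 genes of DNA replication and repair, 9 fell in abdomens, beside 20.8% of all genes, and the helicase gene recQ1 alone had an interaction, of -0.74, a share below the 10.1% of all genes. That call was lost when any 1 of 13 libraries was left out (all but B39A, B40A, B21, B23, B31 and B32), with adjusted p up to 0.101. Leaving out B39A alone gave 6 of these 15 genes a lower interaction, and leaving out B39A and B21 gave 8.

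Other genes that fell in abdomens alone stood up to most single libraries or did not, as follows. Fgfr1op, a centrosome gene, was at 40.9 to 46.5 CPM in 2N abdomens and 20.5 to 38.5 in 3N abdomens, without overlap, and had an interaction of -1.06 ± 0.24 (adjusted p 0.00209) that no single library removed. LOC100117027 had the largest fall among the genes named, from 72.6, 134, 137 and 171 CPM in 2N abdomens to 2.96, 4.24, 4.32, 0.165 and 2.65 in 3N abdomens, with an interaction of -5.64 ± 0.78 (adjusted p 0.000155). In this gene B39A was the lowest 3N abdomen, not the nearest to 2N. LOC100122235 had an interaction of -1.10 ± 0.21 (adjusted p 0.000734). The kinase gene Eif2ak1 (interaction -0.71) lost its interaction without B27, B30, B36A, B37A, B38, B40A, B23, B24, B25, B31 or B35A, with adjusted p up to 0.0632. Rab14, a small GTPase of vesicle transport (-0.32), lost it without B27, B28A, B30, B36A, B37A, B40A, B23, B24, B31, B33 or B35A, with adjusted p up to 0.0813. Tbp, the TATA-binding protein (-0.48), kept it only without B39A, B21 or B35A, and otherwise had adjusted p up to 0.0737.

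**Figure D3:**
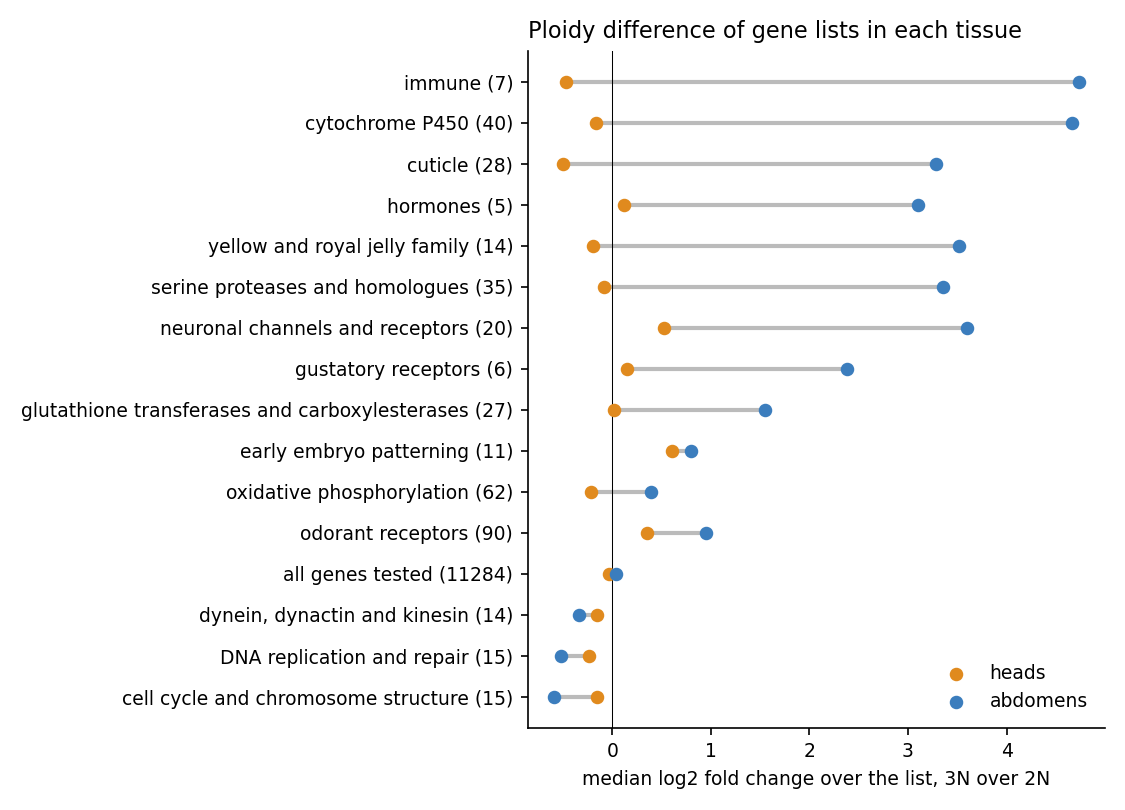
Median log2 difference of 3N from 2N in abdomens and in heads for each gene list, with the median over all 11284 genes for reference. The P450, cuticle, protease, yellow and immune lists have medians above 3 in abdomens and between -0.50 and -0.08 in heads, and the cell cycle and repair lists have negative medians in both.

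Subunits of the mitochondrial respiratory chain and of ATP synthase differed between the tissues by small amounts in the same sense. These complexes pass electrons from food to oxygen and use the resulting proton gradient to make ATP. Of 62 subunit genes, 36 had a higher interaction beside 27.7% of all genes, with a median of 0.59 beside 0.16 over all genes. By complex, 17 of 31 genes of complex I were called, 3 of 4 of complex II, 5 of 8 of complex III, 3 of 6 of complex IV and 8 of 13 of ATP synthase. The median difference of the 62 was 0.39 in abdomens and -0.22 in heads. Whether or not they passed, 50 were positive in abdomens and negative in heads, beside 2583 of all 11284 genes. In single tissues 28 rose in abdomens and 1 fell in heads, beside 33.7% and 0.833% of all genes. Of the 36, 12 rested on the interaction alone.

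SdhB, the iron-sulfur subunit of complex II, had the largest interaction of the list. It was at 76.6, 54.8, 42.6 and 52.0 CPM in 2N abdomens and at 184, 154.5, 97.9, 60.3 and 107 CPM in 3N abdomens. B39A lay within the 2N range and the other 4 3N abdomens above it. In heads SdhB was at 266, 220, 227, 256 and 232 CPM in 2N and at 176, 165, 181, 237 and 183 in 3N, and B34A overlapped the 2N heads. Its difference was 1.10 ± 0.24 in abdomens (adjusted p 0.00126) and -0.35 ± 0.22 in heads (adjusted p 0.429), an interaction of 1.45 ± 0.33 (adjusted p 0.00257). The count of 36 subunits was 21 without B27, 19 without B30, 48 without B39A and B21, 28 on the TPM scale, 18 with a term for deep libraries and 1 when tested against a 1.5-fold change. With the libraries under 30 M counts alone edgeR called 0, while 11 had an unadjusted p under 0.05 there, and with all libraries DESeq2 called 34 and limma voom 37. The median subunit lay 0.57, 0.61, 0.39 and 0.44 above the 2N abdomens in B36A, B37A, B38 and B40A and 0.23 below (-0.23) in B39A, while the 2N abdomen B26A lay 0.31 above its own group. The part of depth in this result was not tested further.

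**Figure D4:**
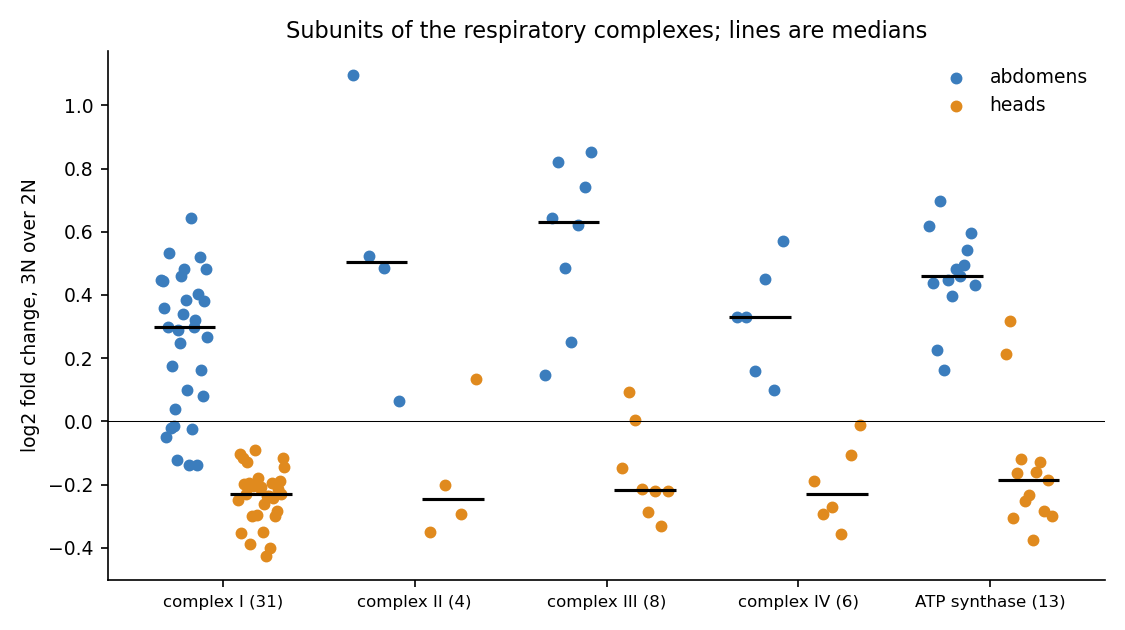
Log2 difference of 3N from 2N in abdomens and in heads for each of the 62 respiratory chain and ATP synthase subunits, by complex. Of the 62, 50 have a positive value in abdomens and a negative one in heads, beside 2583 of all 11284 genes, and the medians are 0.39 and -0.22.

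The few ribosomal protein genes tested, mitochondrial ones included, had no call for the interaction. In abdomens 1 of the 4 ribosomal protein genes rose and 1 of the 4 mitochondrial ones fell, beside 33.7% and 20.8% of all genes. Of 4 ribosomal protein genes tested and 4 mitochondrial ones, edgeR called 0 for the interaction, with 0 at an unadjusted p under 0.05 and 0 by DESeq2 or limma voom, and their medians were 0.19 and 0.04 beside 0.16 over all genes. Leaving out B39A, with or without B21, edgeR called 1 of the 4 ribosomal protein genes.

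The genes that changed in heads alone formed unlike sets by direction. The 120 that rose had a median difference of 0.66 in heads and -0.09 in abdomens, and for 119 of them the 95% interval in abdomens lay within a 2-fold change. When B39A and B21 were left out, 77 of these stayed in heads alone and 36 moved to the opposite class. Without B21 alone, 63 of the 120 still passed in heads. Slo, a calcium-activated potassium channel of nerve and muscle, was at 32.6, 79.2, 64.7, 84.3 and 71.5 CPM in 2N heads and at 89.7, 105, 163, 155 and 226 CPM in 3N heads. The 3N heads were all higher. In abdomens Slo was at 19.9 to 26.7 CPM in 2N and 18.2 to 39.97 in 3N, where B39A was the highest. The difference of Slo was 1.15 ± 0.27 in heads (adjusted p 0.0296) and 0.11 ± 0.29 in abdomens, an interaction of -1.04 ± 0.40 (adjusted p 0.0471). That interaction was lost when any 1 library other than B39A, B22, B24, B31 or B32 was left out (adjusted p up to 0.0957). It was also lost in 9 alternative settings, among them TMM within each tissue, no count filter and limma voom (up to 0.171). The head call was lost without B21, B23, B25, B33, B34A or B35A (up to 0.0829).

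Arp1, the actin-related filament of the dynactin complex that links dynein to its cargo, was at 355 to 542 CPM in 2N heads and 562 to 754 in 3N heads, without overlap, an interaction of -0.75 ± 0.23 (adjusted p 0.0147). It was the 1 gene with an interaction among 14 of dynein, dynactin and kinesin, near the 10.1% of all genes with a lower one. Without B39A, 4 of the 14 had a lower interaction. With all 39 libraries in the fit the interaction of Arp1 was not called. The head difference of Arp1, 0.60, passed at 0.0456 and lost its call when any 1 library other than B37A, B38 or B39A was left out (up to 0.102). The protease gene SP76 rested on a few libraries: the 3N heads held 29.7, 6.69, 2.54, 0.883 and 0.0607 CPM, and the 2N heads 0 to 0.332, which overlap. Its interaction was -5.53, and -3.89 without B31 and -4.89 without B28A. Among genes without a descriptive name, LOC100115582 rose from 20.4 to 23.2 CPM in 2N heads to 29.9 to 41.5 in 3N heads, an interaction of -1.03 ± 0.19 (adjusted p 0.000537), and LOC100122310 from 14.4 to 16.95 to 23.6 to 51.3, an interaction of -1.71 ± 0.33 (adjusted p 0.000667). Without B39A both also passed as lower in 3N abdomens.

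The 47 genes that fell in heads alone turned largely on library B21. Their median difference was -4.81 in heads and -0.46 in abdomens. The 95% interval in abdomens lay within a 2-fold change for only 13 of the 47. For most of these genes a 2-fold change in abdomens was therefore not excluded, and a change in heads alone is not shown. B21 was the highest 2N head at 37 of the 47, and more than 4 times the next highest at 25, with a median ratio of 7.20. Without B21, 13 of the 47 passed in heads and 10 remained in heads alone. These genes were 6.31 (median log2) higher in abdomens of 2N females than in those of males, beside -0.08 for all genes, and B21 also had the highest germline and ovary marker sum among heads. The part of ovary RNA in B21 in these calls was not tested. The gene with a descriptive name, the glutathione transferase GstS3, was at 24.6, 12.1, 15.1, 10.0 and 10.1 CPM in 2N heads and at 5.90, 8.95, 8.56, 8.72 and 6.86 CPM in 3N heads. The 3N heads were all lower, and B21 was the highest. Its interaction was 0.96 ± 0.31 (adjusted p 0.0202), and its head difference of -0.88 lost its call without B21, B23, B31, B32, B33, B34A or B35A (up to 0.0797). The interaction of GstS3 was also lost on the TPM scale, with all 39 libraries in the fit, in the libraries under 30 M counts alone and against a 1.5-fold change, with adjusted p up to 0.149. LOC100124182 fell from 99.6 to 108.8 CPM in 2N heads to 51.8 to 85.9 in 3N heads, without overlap and without losing its interaction or its head call to any single library. LOC100678019 fell from 66.9 to 78.7 to 49.0 to 64.1, and lost its head call without B21, B31, B32 or B33 (up to 0.0631), and without B39A it also passed as higher in 3N abdomens.

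Of the 17 opposite genes, Cenp-a and Kr have descriptive names. Cenp-a, the histone H3 variant on which the centromere is built, was at 91.7, 96.5, 96.7 and 92.4 CPM in 2N abdomens and at 34.4, 45.4, 38.5, 70.8 and 58.4 CPM in 3N abdomens. In heads Cenp-a was at 22.8, 36.5, 29.3, 40.3 and 36.3 CPM in 2N and at 50.9, 55.3, 53.9, 52.2 and 63.4 in 3N. Neither tissue overlapped between ploidies, and the ranges of the 3N abdomens and the 3N heads overlapped. Its difference was -0.93 ± 0.18 in abdomens (adjusted p 0.000487) and 0.74 ± 0.18 in heads (adjusted p 0.0296), an interaction of -1.67 ± 0.25 (adjusted p 0.000182). The head call was lost without B21 (adjusted p 0.0797), B23 (0.0687), B31 (0.0575), B32 (0.0731), B33 (0.0624) or B35A (0.0776), while the interaction was not lost to any single library. The head call was likewise lost with a term for deep libraries (0.0587), a term for libraries with a letter in their name (0.0688), the libraries under 30 M counts alone (0.166), all 39 libraries in the fit (0.143) or a test against a 1.5-fold change (1), and Cenp-a then left the opposite class. Without B39A and B21 together the values of Cenp-a were -1.11 and 0.62, both called.

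Krüppel, Kr, a zinc-finger factor best known from early segmentation in flies, was at 42.8, 47.6, 49.5 and 40.2 CPM in 2N abdomens and at 33.9, 21.3, 24.1, 44.9 and 32.6 CPM in 3N abdomens, where B39A lay within the 2N range. In heads Kr was at 4.85, 6.09, 6.32, 5.17 and 6.93 CPM in 2N and at 13.2, 12.8, 11.6, 13.3 and 19.9 in 3N, with all 3N heads higher. Its difference was -0.52 ± 0.20 in abdomens (adjusted p 0.0339) and 1.27 ± 0.20 in heads (adjusted p 0.00491), an interaction of -1.79 ± 0.28 (adjusted p 0.000197). The abdominal call was lost without B27 (adjusted p 0.0755), B28A (0.0825), B37A (0.0853) or B38 (0.085), and with all 39 libraries in the fit (0.300), the libraries under 30 M counts alone (0.169) or a test against a 1.5-fold change (0.718). Without B39A and B21 the abdominal difference of Kr was -0.70 (adjusted p 0.00245). Of 11 genes of early embryo patterning, 2 had a higher interaction and 1, Kr, a lower one, below or near the 27.7% and 10.1% of all genes. The number higher was 4 without B39A and 1 without B26A, B27, B28A, B30, B36A, B37A, B38 or B22. The median interaction of the 11 was 0.75 on counts, -0.55 on TPM and -0.12 without B39A and B21.

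The other 15 opposite genes carry no descriptive name. LOC100119412 was at 328, 324, 287 and 267 CPM in 2N abdomens and at 424, 416, 374, 374 and 366 CPM in 3N abdomens. In heads LOC100119412 was at 2527, 2423, 2611, 2533 and 2638 CPM in 2N and at 1358, 1550, 1077, 1197 and 1703 in 3N. All 3N abdomens were higher and all 3N heads lower, giving 0.37 ± 0.12, -0.89 ± 0.12 and an interaction of 1.26 ± 0.17 (adjusted p 0.000155). The abdominal call was lost without B30 (adjusted p 0.066). LOC100118738 had the widest interaction of the 17, 12.5 ± 2.02 (adjusted p 0.000236), but its 2N heads ran from 0.128 CPM in B21 to 45.5, and so overlapped the 3N heads, at 0 to 0.243. Its abdomens overlapped too, at 0.0429 to 0.120 and 0.118 to 5.93. LOC100119956 had differences of 2.13 and -1.36, and its head call was lost when any 1 library other than B36A, B39A or B40A was left out (up to 0.0989). Among those that fell in abdomens and rose in heads, LOC100120600 lost its head call without all but B36A, B38, B39A, B25 and B33 (up to 0.122), and LOC103316435 without B21, B23, B32, B34A or B35A (up to 0.0896). In the fit without B39A and B21, 16 of the 17 stayed in the opposite class and LOC100679615 moved to abdomens alone. Of the 125 opposite genes then called, 95 fell in abdomens and rose in heads and 30 did the reverse.

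The 1 gene that passed in both tissues in the same direction with an interaction was LOC103317497. It had 1 count over the 2N abdomens and 416 over the 3N abdomens, a ratio of 290 with a 95% counting interval of 51.8 to 11482. In heads LOC103317497 was at 4.34, 4.32, 6.15, 4.19 and 5.04 CPM in 2N and at 38.5, 34.2, 49.3, 17.4 and 22.2 in 3N, a difference of 2.75 ± 0.46 (adjusted p 0.00516). The groups did not overlap in either tissue. The fitted interaction was 4.75, or 6.37 without B30, the only 2N abdomen with a count. It was -1.06 on the TPM scale, where the added 1 shrinks differences at levels as low as those of the abdomens. Its sign thus depended on the scale.

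Some of the named genes had no interaction. The gene hairy, a transcriptional repressor known in flies from segmentation and bristle patterning, rose by 1.20 ± 0.24 in abdomens (adjusted p 0.000508) and 1.56 ± 0.22 in heads (adjusted p 0.0049), with an interaction of -0.35 (adjusted p 0.398) and a 95% interval of -1.02 to 0.32. The germ plasm gene oskar was at 994 to 1145 CPM in 2N abdomens and 448 to 961 in 3N abdomens, without overlap but without a call (-0.56, adjusted p 0.422). Without B39A and B21 the abdominal difference of oskar, -0.70, passed, still with no interaction. In heads oskar was at 117 CPM in B21 and 9.42 to 18.04 in the other 2N heads, against 4.06 to 8.58 in 3N heads, and its head difference of -2.31 (adjusted p 0.041) became -0.85 without B21 (adjusted p 0.107). The head call was also lost when any 1 other library was left out except B26A, B36A, B38, B39A, B22, B23, B24 and B25. The posterior and germline gene nanos had no call in either tissue with all 19 libraries. Its interaction was 1.07 (adjusted p 0.528), and -1.74 without B21. In heads nanos was at 1.98 CPM in B21 and 0 to 0.172 in the other 2N heads. Without B39A and B21 nanos passed as lower in 3N abdomens (-1.17), with no interaction.

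**Figure D5:**
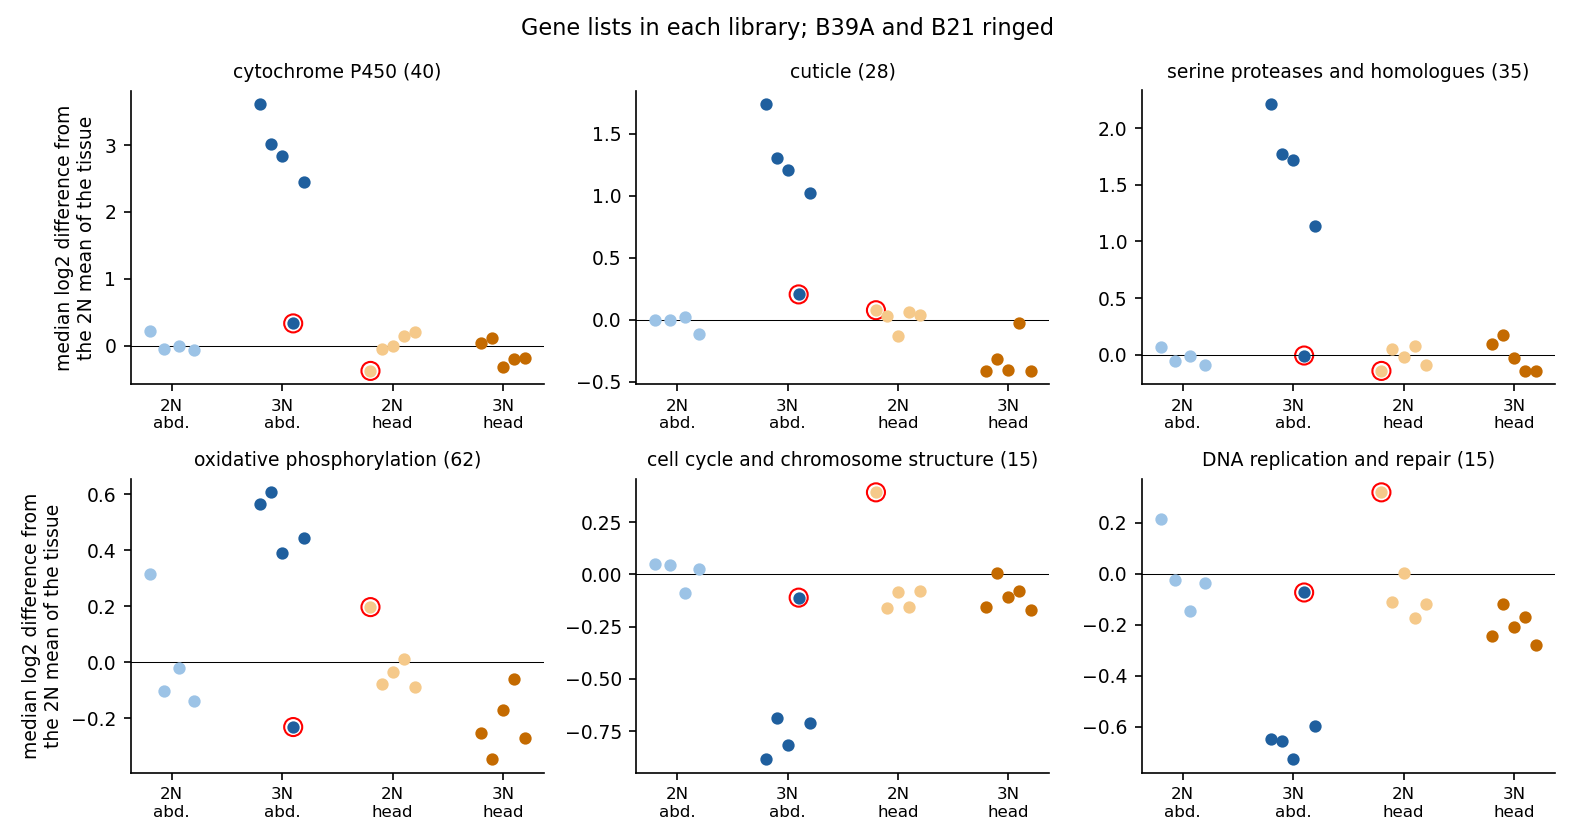
For each library, the median over a gene list of the difference from the mean of the 2N libraries of the same tissue, on the log2(CPM + 0.5) scale. B39A lies near 0 in the P450 list, at 0.33, while the other 3N abdomens lie between 2.46 and 3.62, and in the cell cycle list it is at -0.11 against -0.89 to -0.69.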

How the data were processed

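Gene tables of estimated counts (14621 genes) and of TPM (14613 genes) were deposited by the authors. STAR 2.7.11a and RSEM 1.3.1 are listed, with no role, in the submitters' processing notes, and the genome build is not given in the sources used here. The labels' protocols give no strand setting, so it is not known whether reads of genes that overlap or lie antisense were assigned by strand. Near-identical members of gene families share reads with uncertainty. All 14621 identifiers matched RefSeq symbols of Nvit_psr_1.1, used for names alone.

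The deposited estimated counts (16.8% not whole) were rounded, which moved no value by more than 0.5. The 19 female libraries were fitted together with edgeR 4.0.16 (R 4.3.3), with TMM scaling, filterByExpr and the quasi-likelihood F test, two-sided, without a replicate block. Adjusted p-values are Benjamini-Hochberg over all 11284 genes, and the threshold was 0.05. Contrasts were 3N minus 2N in abdomens, in heads, and their difference. A class of "abdomens only" or "heads only" needs a call in that tissue, none in the other, and the interaction. Rose and fell are used of calls in a tissue, and a higher or lower interaction of the difference between tissues. Errors of log2 differences are standard errors. Male libraries served only for 2N female against male abdomens, from group means of log2 CPM with no test. Counting intervals are exact 95% ones, and they and the floor of 3 counts cover counting error only. The deposited TPM, used as log2(TPM + 1) with limma 3.58.1, DESeq2 1.42.0 and the other alternatives are given in the closing section. The median correlation of a library is Pearson's r over genes with the others of its group. All 36 pairs of libraries within a group differed by more than counting noise, with a chi-square of at least 10.2 per degree of freedom.

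Genes named in the text were, per class and direction, the 6 with descriptive symbols and up to 2 others of smallest interaction adjusted p, given a mean of 5 CPM or more in 1 ploidy of that tissue and ploidy groups that did not overlap, up to 2 per gene list and direction, and 9 genes always given (Tra, Dsx, Fru, Dnmt1a, hairy, Kr, oskar, nanos and LOC100121630). LOC100118738, LOC100679615, Smc2, Smc3, Cdk2, Adipor1, GstO1, GstS8 and GstT3 were added after their values were seen. The members, lists and tests were chosen with earlier results of these data known. A gene that this rule names is not reported here. No sequences were used here.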

Additional observations from a re-analysis of the deposited data

Results flagged for a closer look

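The test of the difference between tissues passed for 60 of the 64 named genes; each value below is the log2 ploidy difference in abdomens minus that in heads, from edgeR. Among P450 and esterase genes the difference was 9.60 for CYP4AB18, 6.29 for CYP4AB12, 5.95 for CYP9AH6, 5.87 for CYP9P3, 5.70 for CYP336B1, 5.53 for CCE-E11 and 5.49 for CCE-A5, and it was 0.96 for GstS3. Among cuticle, protease and yellow genes it was 8.05 for CPR18, 6.21 for CPR16, 6.06 for SP120, 4.84 for SP67, -5.53 for SP76, 4.68 for Mrjpl7 and 3.86 for Y-b. Defence and storage genes had 6.90 for Def1-2, 6.52 for LOC100121630 and 4.49 for Hex70b. Receptor and hormone genes had 7.19 for Or275, 6.27 for Or98, 4.47 for Gr2, 5.02 for Akhr and 4.66 for Acpr. Sex determination genes had 4.40 for Dsx and 1.75 for Tra. Channels had 4.67 for pHCl, 3.31 for GRD, -1.04 for Slo and -3.69 for HisCl1.

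Muscle and developmental genes had 1.17 for Tm1, -0.51 for Tm2, 2.98 for Zasp66, 3.47 for Emc, 5.06 for Eyg and -1.79 for Kr. Genes of chromosomes, division and DNA had -1.67 for Cenp-a, -0.76 for Smc1a, 1.11 for E2f8, -0.74 for recQ1, -1.06 for Fgfr1op, -0.68 for Dnmt1a and -0.65 for Mbd. The mitochondrial subunit gene SdhB had 1.45. Of the rest with names, Arp1 had -0.75, Eif2ak1 -0.71, Rab14 -0.32 and Tbp -0.48. Genes without descriptive names had 8.33 for LOC100678318 (9.17 without B26A), 7.52 for LOC100115486, 4.75 for LOC103317497, 3.49 for LOC100119956, 1.26 for LOC100119412, 0.81 for LOC100124182 and 0.66 for LOC100678019. The lower ones were -5.64 for LOC100117027, -1.71 for LOC100122310, -1.38 for LOC103316435, -1.35 for LOC100120600, -1.10 for LOC100122235 and -1.03 for LOC100115582.

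A single library lay far from the rest of its group in 29 of 253 groups of named-gene levels (11.5%). The cutoff used would flag about 5% of groups of independent, normally spread values. Here the same libraries recur across genes, and in some groups, such as LOC103317497 in 2N abdomens, only a single library has any count. The 5% is therefore no measure of chance for these groups. B21 stood apart among 2N heads 6 times, at 190 CPM in Dsx, 24.1 in E2f8, 11.7 in Mrjpl7, 1.98 in nanos, 117 in oskar and 33.7 in Tbp. B39A stood apart among 3N abdomens 4 times, at 38.5 CPM in Fgfr1op, 308 in LOC100122310, 39.97 in Slo and 123 in Tm2. B26A did so among 2N abdomens 4 times, at 2.76 CPM in CCE-A5, 0.399 in CYP336B1, 5.63 in CYP4AB12 and 0.0799 in Or275. Among abdomens, B38 was at 41.3 CPM in E2f8 and 5.75 in Gr2, B27 at 1.14 in Y-b and B30 at 0.0473 in LOC103317497. Among 2N heads, B23 was at 113 CPM in Def1-2 and 66.9 in LOC100678019, B24 at 386 in pHCl and B25 at 16.95 in LOC100122310. Among 3N heads, B32 was at 107 CPM in CYP9AH6 and 39.9 in Def1-2, B35A at 19.9 in Kr and 326 in Tm1, B31 at 29.7 in SP76, B33 at 0.340 in nanos and B34A at 237 in SdhB. The cause of these was not tested.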

How the results depend on the processing

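No paired analysis was possible because library names are unique to each group and tie no head to an abdomen. Of the 17 opposite genes, those still called in both directions numbered 17 with DESeq2, 16 without B39A and B21, 14 with library totals alone, 13 with DESeq2 size factors and with TMM within each tissue, 11 without a count filter, 10 with limma voom, 9 on TPM, 7 and 6 with terms for deep and for letter-named libraries, 1 with all 39 libraries, 1 with the libraries under 30 M counts (the shallow ones) and 0 against a fold of 1.5. Of the 4270 interactions, 3179 passed when any 1 library was left out. Against a fold of 1.5, 2542 interactions passed (88 lower), 2374 genes were called in abdomens only, 0 in heads only and 0 in opposite directions; 528 genes had an unadjusted p under 0.05 in heads there. DESeq2 gave 1792 lower interactions, 299 heads-only and 68 opposite genes, and limma voom 328 and 181. On log2(TPM + 1), 1897 interactions were higher, 2094 lower and 30 genes opposite. Without a count filter 11 genes were opposite. With all 39 libraries in the fit 41 genes were heads-only and 2 opposite. Without B39A and B21, 5637 were abdomens-only, 2591 lower and 125 opposite. With shallow libraries alone, 2073 interactions passed (1838 higher, 235 lower), with 1859 abdomens-only, 31 heads-only and 2 opposite genes. A term for deep libraries gave 63 heads-only and 9 opposite genes, and a term for letter-named libraries 87 heads-only.

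Leaving out 1 library, interactions ran from 3502 (without B27) to 5870 (without B39A), higher ones from 2785 to 3677, lower ones from 717 to 2193 and abdomens-only genes from 3083 to 5081 between the same libraries, heads-only genes from 68 (without B32) to 242 (without B39A) and opposite genes from 6 (without B28A, B21 or B23) to 195 (without B39A). Head calls, 340 in all, ran from 141 (without B35A) to 855 (without B39A). Over the other alternatives they ran from 0 against a fold of 1.5 to 1602 with limma voom. They numbered 67 with shallow libraries alone, 74 with all 39 libraries, 107 with a term for deep libraries and 814 with DESeq2. Among single named genes, 1891 values over all settings kept direction and call, 152 lost the call and 5 changed sign: Eyg to -0.64 and LOC103317497 to -1.06 on TPM, and nanos to -0.33 on TPM, -2.16 without B39A and B21 and -1.74 without B21 (5.71 without B33, the highest with 1 library left out). Beside losses to single libraries, named interactions were lost with shallow libraries alone at 18 genes (Dnmt1a, E2f8, Eif2ak1, Eyg, Fgfr1op, GstS3, Hex70b, LOC100678019, Mbd, Rab14, recQ1, SdhB, Slo, Smc1a, SP76, Tbp, Tm1 and Tm2), with all 39 libraries at 8 (Arp1, Eif2ak1, Eyg, GstS3, HisCl1, recQ1, Slo and Tm1), on TPM at 7 (Eyg, GstS3, Hex70b, Or98, pHCl, Slo and SP76) and against a fold of 1.5 at 17. Limma voom lost Eyg, HisCl1, Or98, Slo and SP76, and a term for deep libraries lost Or98, Rab14, recQ1, SP76 and Tbp. Library totals alone lost Rab14, recQ1, Slo and Tbp, and the fit without a count filter lost Rab14, recQ1 and Slo. A term for letter-named libraries lost recQ1 and Slo, and TMM within each tissue lost Slo. HisCl1 was lost with DESeq2 and without B39A and B21. Why these values moved was not tested. Depth limits the genes with few counts in 2N abdomens, and the uneven depth of 2N and 3N heads limits the head calls.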
